A study of Rattus norvegicus with 6 samples.

Results

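The 10 genes described here are the AP-1 genes JUN, JUNB, JUND, FOS, FOSB, FOSL1 and FOSL2, the stress-induced partner ATF3, and the immediate early genes EGR1 and IER2. They were chosen by name, with earlier results of these data known, and all 10 were found among the 17648 genes of the expression table. The 6 RNA libraries came from cultured neurons of the spinal cord of neonatal Sprague-Dawley rats. In the Glu + siR-Con group 3 libraries received a control small interfering RNA (siRNA), and in the Glu + siR-GAL3 group 3 received an siRNA against GAL3, the carbohydrate-binding protein galectin-3 encoded by LGALS3. After 3 days of culture with Ara-C, which removes dividing cells, the neurons of the injury model were exposed to 10 μM glutamate for 1 h and kept for a further 16 h in medium without glutamate. The sample labels give saline, which is 0 μM glutamate, for the siR-Con libraries, and call the siR-GAL3 samples a knockout, whereas the design text and the methods describe glutamate in both groups and an siRNA. The libraries are grouped here as Glu + siR-Con and Glu + siR-GAL3. If the labels were right, glutamate and the loss of GAL3 could not be told apart in every comparison that follows. As a model the groups have limits: 1 siRNA was used, the methods speak of repeated experiments in general without tying the libraries to separate cultures, and by the methods none was made without glutamate, so the response to glutamate itself was not measured.

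AP-1 is a transcription factor made of 2 proteins of the basic leucine zipper (bZIP) class. JUN proteins pair with each other or with FOS proteins, FOS proteins need a JUN partner, and ATF3 pairs with JUN proteins. In neurons, calcium entry through glutamate receptors and stress kinases switch on many of these genes within minutes, without new protein synthesis, and for FOS and EGR1 the transcript usually fades within hours. JUN and ATF3 are known for a longer rise in injured neurons, and JUN is activated by the kinase JNK. The libraries were thus made long after the usual early peak.

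The promoters of 7 of the 10 genes were matched by symbol to RefSeq sequences of assembly GRCr8, and 3 are shown as examples: IER2, the member with the highest fold change, and JUND and JUNB, whose share of the JUN family differed. Each is the 250 bases before the transcription start, read 5′ to 3′ on the strand of the gene, and capitals mark the motif found. IER2 (chr19:40399123-40399372, plus strand) and JUND (chr16:18769772-18770021, minus strand) hold a cAMP response element (CRE, TGACGTCA), to which CREB and ATF proteins bind, and JUND also holds a site for EGR proteins (GCGTGGGCG). JUNB (chr19:40080876-40081125, plus strand) holds a TATA box (TATAAA).
IER2: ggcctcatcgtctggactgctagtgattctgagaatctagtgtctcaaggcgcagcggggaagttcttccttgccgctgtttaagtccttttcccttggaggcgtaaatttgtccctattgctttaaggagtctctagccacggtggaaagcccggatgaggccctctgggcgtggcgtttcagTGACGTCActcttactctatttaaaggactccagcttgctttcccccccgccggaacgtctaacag
JUND: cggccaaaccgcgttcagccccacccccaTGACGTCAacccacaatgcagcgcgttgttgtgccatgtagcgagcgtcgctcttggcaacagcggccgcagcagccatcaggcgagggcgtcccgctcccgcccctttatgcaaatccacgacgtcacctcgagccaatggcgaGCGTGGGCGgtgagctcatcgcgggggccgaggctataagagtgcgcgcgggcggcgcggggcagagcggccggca
JUNB: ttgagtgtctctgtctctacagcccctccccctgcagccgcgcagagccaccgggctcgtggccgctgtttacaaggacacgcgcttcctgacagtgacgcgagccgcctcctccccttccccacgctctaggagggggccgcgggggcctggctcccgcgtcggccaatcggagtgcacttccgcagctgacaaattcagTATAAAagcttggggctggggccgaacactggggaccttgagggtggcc
The CRE of IER2 began 66 bases before the start and that of JUND 221 bases before it, the EGR site of JUND began 76 bases before it, and the TATA box of JUNB 49 bases before it. On both strands, CRE was found in 1.59% of the 33469 promoters searched, the EGR site (GCGGGGGCG or GCGTGGGCG) in 2.85% and TATAAA in 12.9%. Of the other member promoters, EGR1 held the CArG box, the site of serum response factor, at 2 places, where 1.5% of all promoters held it at all. FOSL2 held an EGR site and FOSB a TATA box on the opposite strand. The AP-1 site (TGACTCA or TGAGTCA) was in none of the 7 windows and in 4.05% of all promoters, and its variant TGACATCA, known from the JUN promoter, was in none and in 3.8%. These matches are letters in a window, and binding was not measured.

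The values are expression values derived from fragments per kilobase of transcript, scaled to the reads mapped (FPKM). FPKM let levels of different genes be compared per transcript length, but the authors corrected these values further. Whether such a comparison still holds after the correction was not tested, and the order of levels and the family sums below rest on it. The depth behind each value is unknown. LGALS3, the targeted gene, measured 77.4, 54.4 and 62.4 under siR-Con (replicates 1 to 3, the order used throughout) and -1.64, 32.3 and 18.5 under siR-GAL3. The groups did not overlap, a pattern that 10.3% of all genes tested showed downward. Within its group siR-GAL3 replicate 2 held the highest LGALS3 value. Exactly equal values, which no member held, divided the libraries into 3 sets: siR-Con replicate 1 with siR-GAL3 replicate 1, siR-Con replicates 2 and 3 with siR-GAL3 replicate 3, and siR-GAL3 replicate 2 alone. siR-GAL3 replicate 2 also stood apart on the first principal component, at 27.9 against -8.52 to -1.94 for the other libraries. Fold changes that it moved by over 1.5 times are given with and without it. A difference in level can come from fewer cells of a type or from less RNA in each cell, which cannot be told apart in such samples. The cells were labelled neurons, but 8 of 13 neuron markers in the table had a mean below 1, among them RBFOX3 at 0.383. The other neuron markers were MAP2 at 16.9, ELAVL3 at 9.10, TUBB3 at 4.63, SYT1 at 1.89 and STMN2 at 1.06. GFAP of astrocytes had a mean of 655 ± 94.6 in siR-Con and 524 ± 9.35 in siR-GAL3 (SD, n = 3). It was the highest of the astrocyte markers, and the lowest was ALDH1L1 with a mean of 3.21.

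By mean level over the 6 libraries, JUN came first with 15.3, followed by ATF3 with 8.57, JUND with 8.18, FOS with 5.50, IER2 with 4.55, JUNB with 3.81, EGR1 with 2.56, FOSL2 with 2.37, FOSL1 with 0.776 and FOSB with 0.0269. The range of JUN lay above that of ATF3, the range of JUND above that of FOS, that of JUNB above that of EGR1, and that of FOSL1 above that of FOSB. ATF3 and JUND overlapped, as did FOS and IER2, IER2 and JUNB, and EGR1 and FOSL2, and the overlap of FOSL2 with FOSL1 came from siR-GAL3 replicate 2. IER2 was nevertheless above JUNB within 6 of 6 libraries. JUN was higher than 96.3% of all genes in the table, EGR1 than 72.2% and FOSB than 18.1%.

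**Figure D1:**
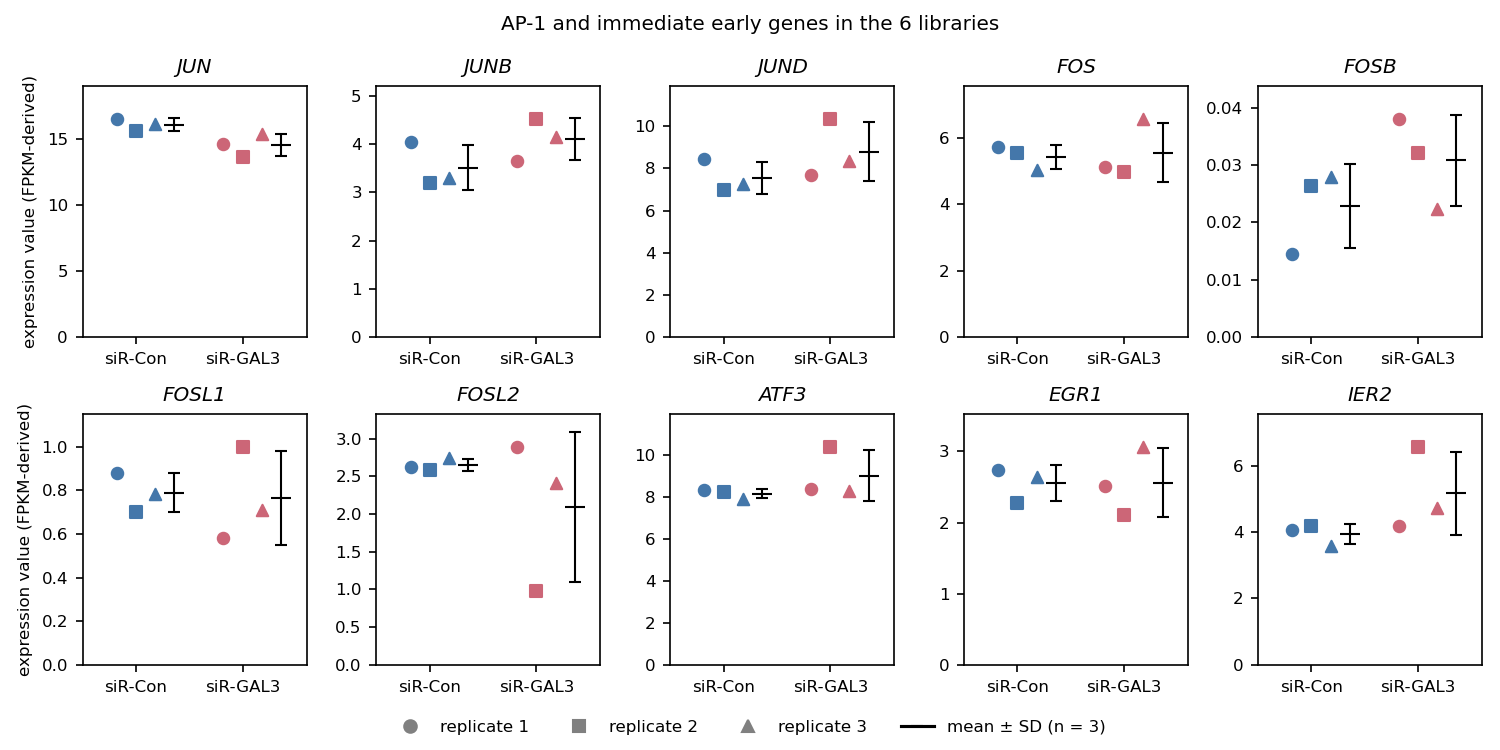
Expression values of the 10 genes in each library (y axis, FPKM-derived and starting at 0, on a scale of its own for each gene), with siR-Con in blue and siR-GAL3 in red. Marker shapes give the replicate and black bars the mean ± SD of 3 libraries. JUN lay lower and IER2 higher in all siR-GAL3 libraries, and for FOSL2, ATF3, JUND and IER2 siR-GAL3 replicate 2 (square) lay farthest from the other libraries.

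Between the groups, none of the 8 members with a mean of at least 1 passed an adjusted p under 0.05 in limma, fitted over 8495 genes, and none had an unadjusted p under 0.05. Over all genes tested, 0% passed the adjusted threshold and 8.66% the unadjusted one. JUN was lower in siR-GAL3 and IER2 higher, each without overlap between groups, a pattern that 10.3% of all genes showed downward and 10.3% upward. One gene of 8 in each direction is near that background. Of the 8 members, 5 had a higher and 3 a lower mean log2 value in siR-GAL3. Their log2 fold changes had a median of 0.071 against -1.2e-05 for all genes tested. With 3 libraries against 3, the exact two-sided permutation test of a single gene cannot give a p below 0.1.

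Among the JUN proteins, JUN itself, the main activator of AP-1 and the target of JNK, had values of 16.5, 15.6 and 16.1 in siR-Con and 14.6, 13.7 and 15.4 in siR-GAL3. The groups did not overlap, and siR-GAL3 was the lower one, by a small margin for replicate 3. The mean was 16.1 ± 0.480 against 14.6 ± 0.849 (SD, n = 3), a change of -9.41%, with a log2 fold change of -0.13 ± 0.070 (SE), a 95% confidence interval of -0.30 to 0.032, a limma adjusted p of 0.586 and an exact permutation p of 0.1. Without siR-GAL3 replicate 2 the fold change was -0.093.
JUNB, which often restrains JUN, had values of 4.05, 3.18 and 3.30 in siR-Con and 3.66, 4.52 and 4.14 in siR-GAL3. The groups overlapped because siR-Con replicate 1 was above siR-GAL3 replicate 1. Its log2 fold change was 0.18 ± 0.10 (SE; interval -0.061 to 0.42) with an adjusted p of 0.590 in limma, and without siR-GAL3 replicate 2 it was 0.12.
JUND, the JUN protein that is present at steady levels in most resting cells, had values of 8.43, 6.98 and 7.26 in siR-Con and 7.69, 10.4 and 8.35 in siR-GAL3. The highest library was siR-GAL3 replicate 2, and the groups overlapped. Its log2 fold change was 0.19 ± 0.12 (SE; interval -0.092 to 0.47) with an adjusted p of 0.596 in limma, and without siR-GAL3 replicate 2 it was 0.079.

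Among the FOS proteins, FOS, the classic marker of recent neuronal activity, had values of 5.74, 5.54 and 5.04 in siR-Con and 5.14, 4.96 and 6.58 in siR-GAL3. The siR-GAL3 group held both the lowest and the highest library. The log2 fold change was 0.020 ± 0.11 (SE; interval -0.23 to 0.27) with a limma adjusted p of 0.936, and its sign changed with the library left out. Without siR-GAL3 replicate 2 it was 0.085.
FOSL2, also called FRA2, a FOS protein without a strong activating region and induced later than FOS, had values of 2.62, 2.59 and 2.74 in siR-Con and 2.90, 0.976 and 2.41 in siR-GAL3. A single library, siR-GAL3 replicate 2, was far below the rest. The log2 fold change of -0.30 ± 0.23 (SE; interval -0.85 to 0.26, limma adjusted p of 0.628) became -0.0012 without it.
FOSL1, also called FRA1, the other late FOS protein, ranged from 0.703 to 0.880 in siR-Con and from 0.581 to 1.00 in siR-GAL3. FOSB, whose short form builds up with repeated stimulation, ranged from 0.0145 to 0.0279 and from 0.0223 to 0.0380. Both groups overlapped for each of these genes, and with means below 1 neither entered the fit.

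ATF3, which appears in injured neurons and pairs with JUN, had values of 8.33, 8.20 and 7.89 in siR-Con and 8.36, 10.4 and 8.25 in siR-GAL3. Apart from siR-GAL3 replicate 2, all libraries lay between 7.89 and 8.36. The log2 fold change was 0.12 ± 0.10 (SE; interval -0.10 to 0.35) with an adjusted p of 0.626 in limma, and without that library it was 0.026.
EGR1, a zinc finger factor of the early response that is not a bZIP protein, had values of 2.75, 2.28 and 2.65 in siR-Con and 2.52, 2.10 and 3.07 in siR-GAL3. Its group means were both 2.56, with SDs of 0.247 and 0.485. The log2 fold change was -0.0040 ± 0.11 (SE; interval -0.27 to 0.26) with an adjusted p of 0.990 in limma, which leaves room for a change of either sign of that size, and without siR-GAL3 replicate 2 it was 0.091.
IER2, an early response gene that encodes a regulator of transcription and whose promoter with its CRE is printed above, had values of 4.05, 4.17 and 3.59 in siR-Con and 4.20, 6.58 and 4.73 in siR-GAL3. All siR-GAL3 libraries exceeded all those of siR-Con, replicate 1 of siR-GAL3 by 4.20 against 4.17 only. The mean was 3.94 ± 0.308 against 5.17 ± 1.25 (SD, n = 3), a difference of 31.3%, with a log2 fold change of 0.30 ± 0.14 (SE; interval -0.032 to 0.64), a limma adjusted p of 0.585 and an exact permutation p of 0.1. Without siR-GAL3 replicate 2 the log2 fold change of IER2 was 0.15, and its size in all 6 libraries was above that of 93.3% of all genes tested.

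**Figure D2:**
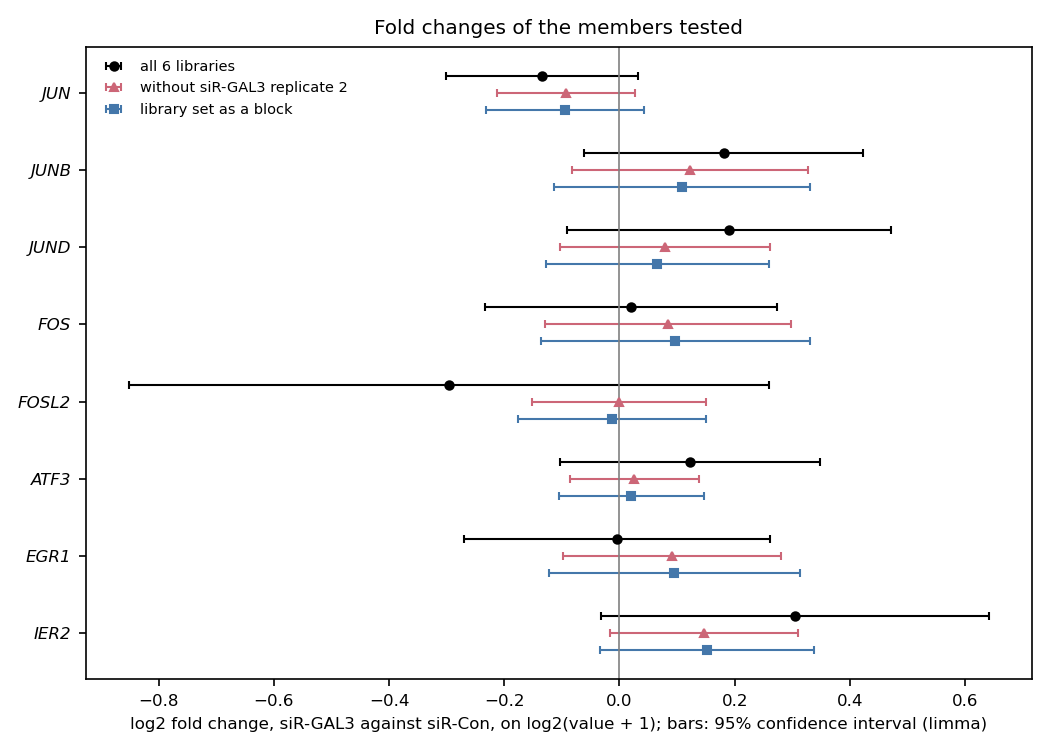
Log2 fold change of siR-GAL3 against siR-Con on log2(value + 1) for the 8 members tested (x axis), with 95% confidence intervals from limma. Black circles are fits of all 6 libraries, red triangles leave out siR-GAL3 replicate 2 and blue squares have a block for the library set. Every interval held 0 in these 3 fits, and FOSL2 moved from -0.30 to -0.0012 without siR-GAL3 replicate 2.

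Within library sets, siR-GAL3 can be set against siR-Con in both larger sets, here by the difference in log2(value + 1). For JUN it was -0.16 in the first and -0.042 in the second, and for IER2 0.041 and 0.23. The same direction in both sets had to follow for JUN and IER2, since neither overlapped between the groups. JUNB had -0.12 and 0.28, JUND -0.12 and 0.20, FOS -0.13 and 0.27, and EGR1 -0.091 and 0.24, each lower in the first set and higher in the second. FOSL2 had 0.10 and -0.10, the reverse order, and ATF3 0.0044 and 0.033, of the same sign. The third set holds siR-GAL3 replicate 2 only and gives no difference. In both larger sets siR-GAL3 is a single library. How many of all genes changed sign between these sets was not counted, so the signs are not a result about the members. When the library set entered the fit as a block, JUN had a log2 fold change of -0.094 and IER2 of 0.15, and none of the 8 members passed an adjusted p under 0.05, where 1.25% of all genes did.

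Because JUN proteins are the shared partners, the families were also summed. The 3 JUN genes together reached 27.1 ± 1.69 in siR-Con and 27.5 ± 1.32 in siR-GAL3 (SD, n = 3), and the 4 FOS genes 8.90 ± 0.336 and 8.45 ± 1.39. The JUN family sum was thus over the FOS family sum in every library, at a ratio of FOS to JUN of 0.329 ± 0.0136 in siR-Con and 0.309 ± 0.0565 in siR-GAL3. The make-up of the JUN family differed more than its sum. JUN made up 57.0%, 60.5% and 60.4% of it in siR-Con and 56.3%, 47.9% and 55.2% in siR-GAL3, with no overlap between groups. JUND made up 27.1% to 29.1% in siR-Con and 29.6% to 36.3% in siR-GAL3, and JUNB 12.4% to 14.0% and 14.1% to 15.8%, both also without overlap. These shares depend on each other and were not tested, and the gap between siR-Con replicate 1 and siR-GAL3 replicate 1 was small for all 3 genes. The values of JUNB and JUND themselves overlapped between groups. The extreme share of all 3 genes was that of siR-GAL3 replicate 2. The values of 10.3% of all genes tested were lower without overlap and those of 10.3% higher. That is a rate for values of single genes, and none was computed for shares within a family. In the FOS family, FOS made up 58.7% to 62.5% and 59.4% to 71.2%, and FOSL2 28.3% to 31.9% and 14.0% to 33.4%. The lowest FOSL2 share and the highest FOS share were those of siR-GAL3 replicate 2.

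**Figure D3:**
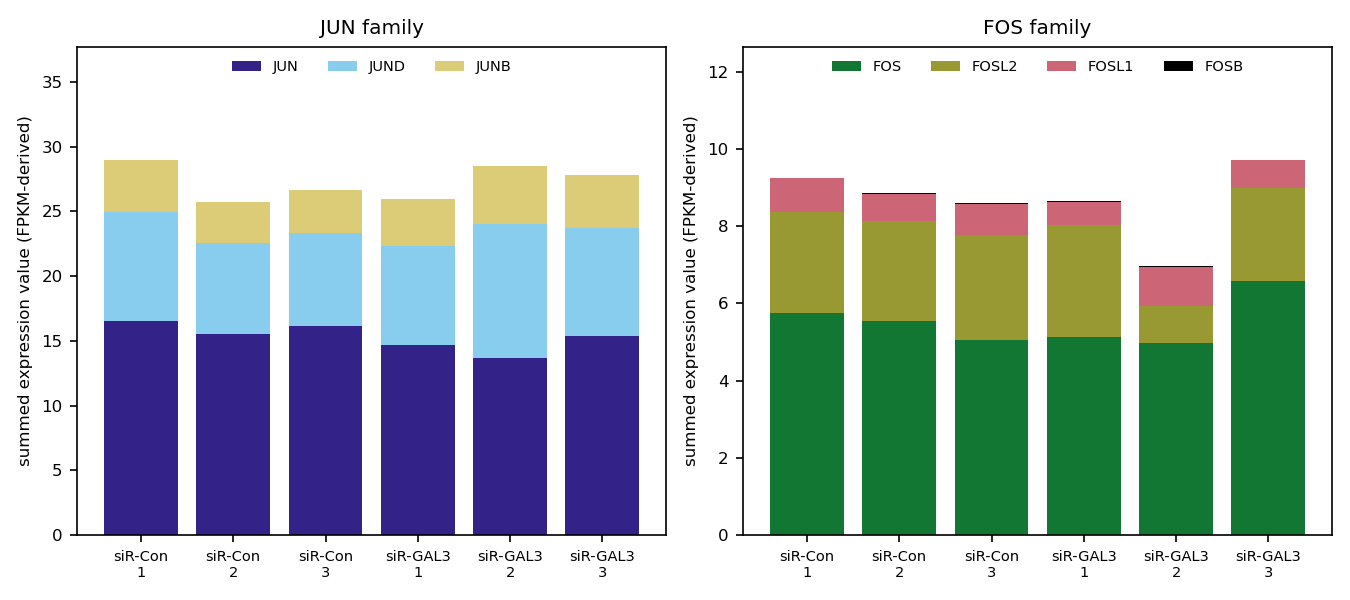
Summed expression values (y axis, FPKM-derived) of the JUN family (left) and the FOS family (right) in each of the 6 libraries, stacked by gene. JUN was the largest part of its family in every library, at 47.9% in siR-GAL3 replicate 2, where the FOS family sum was lowest and FOSL2 was at 0.976.

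The library that set several of these values differed from the others by gene span, the distance from the start to the end of a gene in RefSeq, a comparison chosen after the data were seen. Over the 8224 genes with a span, the median log2 deviation of siR-GAL3 replicate 2 from the mean of the other 5 libraries was 0.25 in the quartile of shortest genes and -0.21 in that of the longest. The other libraries lay between -0.061 and 0.071 in the same quartiles. In this library IER2 deviated by 0.56, JUND by 0.38, ATF3 by 0.31 and JUNB by 0.25, and FOS by -0.14, JUN by -0.18, EGR1 by -0.23 and FOSL2 by -0.88. Of these, JUN, JUNB, JUND, FOS, EGR1 and IER2 are in the shortest quartile, where the deviations thus had both signs, FOSL2 is in the second and ATF3 in the third. By size alone, the deviation of FOS in this library exceeded that of 34.4% of all genes tested and that of JUND 75.2%. JUN, EGR1, JUNB and ATF3 lay between these shares. IER2 exceeded 89.9% and FOSL2 98.0%. The part of gene span in the differences between groups was not tested.

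**Figure D4:**
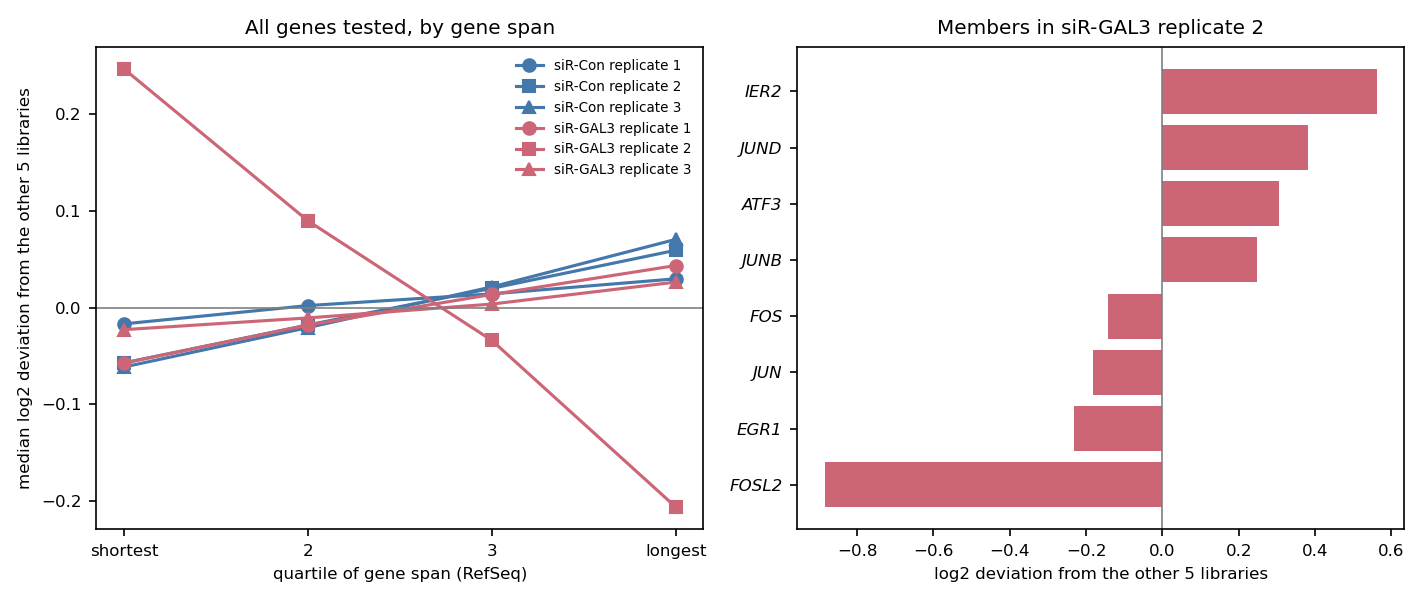
Left, median log2 deviation of each library from the mean of the other 5 (y axis) over quartiles of gene span (x axis), with siR-Con in blue and siR-GAL3 in red. Right, the same deviation of each member tested in siR-GAL3 replicate 2 (x axis), which ran from -0.88 for FOSL2 to 0.56 for IER2, while the medians of that library ran from 0.25 to -0.21.

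Other immediate early and activity-regulated genes were set beside the members. This list and those that follow were also chosen with earlier results of these data known. Of the 44 measured, 25 were tested, and 4 were higher and 0 lower in siR-GAL3 at an unadjusted p under 0.05 (16% against 8.66% of all genes, of which 4.41% were higher and 4.25% lower), with none past the adjusted threshold and a median log2 fold change of 0.075. SGK1, a kinase induced by serum and glucocorticoids, had 6.32, 5.95 and 5.93 in siR-Con and 8.50, 8.47 and 7.67 in siR-GAL3, a log2 fold change of 0.38 ± 0.070 (SE) with an adjusted p of 0.149 in limma. All siR-GAL3 libraries of SGK1 were above all siR-Con libraries. With a block for the library set, siR-GAL3 replicate 2, alone in its set, adds nothing to the group difference. That fit and the fit without this library thus rest on the same libraries. The adjusted p of SGK1 in limma was 0.0287 without siR-GAL3 replicate 2 (1.97% of all genes passed) and 0.0410 with the block (1.25%). The others were CEBPD, a bZIP factor of the acute phase, at 4.94 ± 1.23 and 8.02 ± 1.93, RHOB, a small GTPase, at 10.8 ± 0.464 and 12.4 ± 0.250, and NFKBIA, the inhibitor of NF-κB, at 4.94 ± 0.320 and 6.07 ± 0.868 (siR-Con and siR-GAL3, SD, n = 3). Levels of activity-regulated genes on this list, named after their values were seen, ran from near 0 to well above 1. ARC lay between 0.019 and 0.081, NPAS4 between -0.0038 and 0.026 and EGR4 at or below 0.0080, while the means over 6 libraries were 2.71 for HOMER1 and 1.43 for NPTX2.

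Of other bZIP partners, 12 of 18 were tested, 2 were higher and 0 lower at an unadjusted p under 0.05 (16.7%), and the median log2 fold change was -0.0043. JDP2, a repressor that pairs with JUN, was at 2.11 ± 0.121 in siR-Con and 2.58 ± 0.290 in siR-GAL3 without overlap, and DDIT3, the stress factor CHOP, was at 2.23 ± 0.335 and 3.10 ± 0.726. NFE2L1 was at 8.16 ± 0.378 and 6.56 ± 1.66, and BATF3 at 2.26 ± 0.420 and 1.78 ± 0.479, neither under that threshold.
Of the kinases and factors upstream of AP-1, 34 of 44 in the table were tested, 2 were higher and 0 lower (5.88% against 8.66% of all genes), and the median was -0.036. MAP2K1, the kinase MEK1 that activates ERK, was at 5.15, 5.15 and 5.18 in siR-Con and 6.29, 6.15 and 6.46 in siR-GAL3. Its log2 fold change was 0.24 ± 0.060 (SE) with a limma adjusted p of 0.288. Without siR-GAL3 replicate 2 the limma adjusted p of MAP2K1 was 0.0362, where 1.97% of all genes passed. It passed in no other fit, the block for the library set included. RPS6KA1, the ERK target RSK1, was at 0.985 ± 0.0928 and 1.27 ± 0.0980, both genes without overlap. NRAS was at 14.2 ± 0.457 and 11.4 ± 2.52, and MAP2K4, which activates JNK, at 3.82 ± 0.123 and 3.36 ± 0.244.
Of 10 MAP kinase phosphatases, which switch these kinases off, 4 were tested, 1 was higher and 0 lower (25%), with a median of 0.039. DUSP6, which acts on ERK, was at 0.909 ± 0.161 and 1.24 ± 0.208, DUSP8 at 1.43 ± 0.0951 and 1.61 ± 0.319, DUSP7 at 7.54 ± 0.214 and 7.27 ± 1.45 and DUSP10 at 1.89 ± 0.0616 and 1.85 ± 0.119.

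On the side of possible targets, 15 of 27 genes of the injured and regrowing neuron in the table were tested, 2 were higher and 0 lower at an unadjusted p under 0.05 (13.3%), and the median was -0.050. These were the stathmins STMN2, at 0.822 ± 0.137 and 1.29 ± 0.184, and STMN4, at 32.5 ± 2.01 and 41.9 ± 4.54, both without overlap, which bind tubulin. NTRK3, a neurotrophin receptor, was at 2.57 ± 0.163 and 1.96 ± 0.486, and CD44, a receptor for hyaluronan, at 18.3 ± 1.95 and 15.9 ± 1.12.
Of 33 AP-1 targets in other tissues 17 were tested, 2 were higher and 1 lower (17.6%), and the median was 0.022. PLAU, the urokinase, was at 0.974 ± 0.120 and 1.49 ± 0.0867, and its limma adjusted p was 0.210. That p was 0.0342 without siR-GAL3 replicate 2 (1.97% of all genes passed), and PLAU passed in no other fit. MMP14, a matrix protease of the cell surface, was at 38.6 ± 1.85 and 29.3 ± 3.00, a log2 fold change of -0.39 ± 0.090 (SE) with an adjusted p of 0.262 in limma. S100A6 was at 0.995 ± 0.211 and 1.83 ± 0.839, and CCND1 at 1.39 ± 0.238 and 1.72 ± 0.297. VEGFA, named after its values were seen, was at -0.618 in siR-GAL3 replicate 2 and at 25.9 to 34.9 in the other libraries.
Without siR-GAL3 replicate 2, where 16.3% of all genes had an unadjusted p under 0.05, the lists held 4 higher genes among the other immediate early genes, 1 among the bZIP partners, 3 among the upstream kinases and factors and 0 among the phosphatases, with 0 lower in each. The genes of the injured neuron then held 2 higher and 2 lower, and the AP-1 targets 4 higher and 2 lower. In that fit the genes past an adjusted p under 0.05 were SGK1, MAP2K1, PLAU and HSPB1. HSPB1, a heat shock protein of the injured neuron list named after its values were seen, lay between 23.8 and 28.0 in siR-Con and was at 19.6 and 19.2 in siR-GAL3 replicates 1 and 3, the libraries of that fit, and at 27.3 in siR-GAL3 replicate 2. Log2 fold changes that moved by over 1.5 times without siR-GAL3 replicate 2 were those of NFKBIA (0.24 to 0.15), DDIT3 (0.33 to 0.19), NFE2L1 (-0.30 to -0.11), NRAS (-0.31 to -0.14), NTRK3 (-0.28 to -0.14), S100A6 (0.47 to 0.24), DUSP7 (-0.062 to 0.073) and DUSP10 (-0.023 to -0.057).
The counts also turned on other libraries. The other immediate early genes held 1 higher gene of 25 without siR-Con replicate 2 and 1 without siR-Con replicate 3 (4% each, against 4.12% and 4.05% of all genes), and the bZIP partners and the phosphatases held 0 in both fits. Without siR-GAL3 replicate 1, where 14.7% of all genes passed, the upstream list held 4 higher and 3 lower of 34 (20.6%) and the bZIP partners 1 higher and 2 lower. Over the 107 genes tested in the 6 lists, 13 were higher and 1 lower in all 6 libraries, 13 and 8 without siR-GAL3 replicate 1, and 5 and 1 without siR-Con replicate 3.

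**Figure D5:**
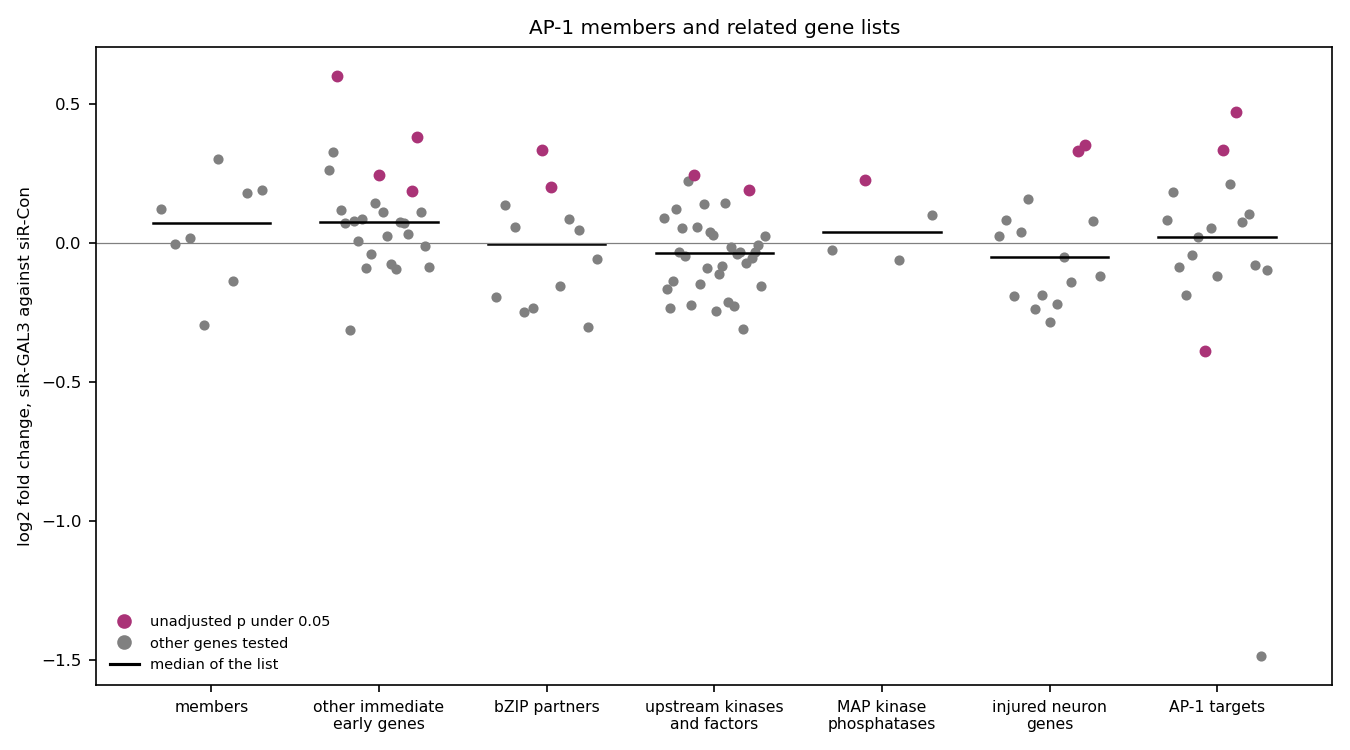
Log2 fold change of siR-GAL3 against siR-Con (y axis) for each gene tested, by list (x axis), with the median of each list as a black line and genes with an unadjusted p under 0.05 in purple. The list medians lay between -0.050 and 0.075, 13 of the 14 purple points were above 0 in all 6 libraries (13 above and 8 below without siR-GAL3 replicate 1), and the lowest point is VEGFA.

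Levels of markers of other cells are given beside these results, since several differed between the groups, although none of the markers passed an adjusted p under 0.05. Of 13 microglia markers tested, 12 were higher in siR-GAL3, 6 of them at an unadjusted p under 0.05 (46.2%). As a reference for this and the next lists, 4247 of the 8495 genes fitted had a log2 fold change above 0. At the same threshold 4.41% of those genes were higher and 4.25% lower. The summed level of 14 microglia markers was 125 to 149 in siR-Con and 157 to 178 in siR-GAL3. CD68 was at 9.15 ± 0.412 and 13.8 ± 0.671 (SD, n = 3). Of 10 astrocyte markers 3 were lower at that threshold, with summed levels of 898 to 1038 and 776 to 841, and of 5 fibroblast and vessel markers tested 3 were lower, with summed levels over 7 markers of 44.0 to 51.5 and 34.0 to 39.1. Of 9 oligodendrocyte lineage markers tested 0 passed, with summed levels over 10 markers of 1055 to 1126 and 1063 to 1385, and the 13 neuron markers summed to 33.9 to 39.0 and 32.1 to 39.2, with 1 of 5 tested, STMN2, higher. No marker of these lists had a value at or below 0. Since microglia, astrocytes and neurons can all express JUN, FOS, IER2 and SGK1, the part of these levels in the differences was not tested.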

How the data were processed

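RNA of 6 libraries was sequenced by the authors, aligned with STAR and counted with HTSeq, and FPKM were computed. Removal of batch effects, standardization and a correction of differences within groups followed, with tools that are not given in the sources used here, as is the genome build. The deposited values are therefore a corrected score on a linear scale derived from FPKM, not FPKM as planned: 2376 of 17648 genes held a value below 0. The labels name ribosomal depletion and the supplement poly-T selection, which could change which transcripts were measured. Counting error cannot be given, since depth is unknown.

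limma 3.58.1 (R 4.3.3) was run on log2(value + 1), negative values taken as 0, over the 8495 genes whose mean reached 1, with an intensity trend and Benjamini-Hochberg adjustment. The fit was tested on simulated data. Fold changes on this scale understate changes of low genes. Single genes were compared by exact two-sided permutation tests (SciPy 1.17.1). P-values measure the spread between libraries, which may be technical and which the authors' correction within groups may have narrowed. Genes named are the members, LGALS3, up to 4 genes of each related list with the smallest p, and the 3 genes most like JUN, FOS, EGR1 and ATF3. Cell type lists are given by counts, sums and a few markers named after their values were seen. Members and lists were chosen with earlier results of these data known. Alternatives were another pseudocount, filters, scalings, variance model and scale, blocks, and each library left out.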

Additional observations from a re-analysis of the deposited data

How the results depend on the processing

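Under each alternative in which a member was fitted, none of the 8 members passed an adjusted p under 0.05. The count of members with an unadjusted p under 0.05, 0 in all 6 libraries, was 1 without the log transformation (JUN, where 8.83% of all genes passed) and 1 with the replicate number as a block (IER2, where 6.39% did), and 0 to 1 with each library left out. It was 1 without siR-Con replicate 1 (JUNB, log2 fold change 0.26, where 6.09% of all genes passed) and 1 without siR-GAL3 replicate 1 (IER2, 0.42, where 14.7% did). Members higher without overlap numbered 0 under quantile normalization and with a mean of at least 10, where JUN alone was tested and the median was -0.13, and 1 to 4 with a library left out, 4 without siR-Con replicate 1, where 15.8% of all genes were higher without overlap. Those lower without overlap numbered 1 to 2, 2 without siR-GAL3 replicate 1, where 18.4% of all genes were. With a library left out, JUN stayed between -0.17 and -0.093 and IER2 between 0.15 and 0.42, while EGR1 ran from -0.10 to 0.091, FOS from -0.088 to 0.085 and DUSP7 from -0.18 to 0.073. With the library set as a block EGR1 was 0.095 and DUSP7 0.089. The cause was not tested. The same replicate numbers of the 2 groups did not deviate together (correlations -0.17, -0.070 and 0.044), so the block rests on a shared number only: 543 genes then had an unadjusted p under 0.05, against 736. With that block the related lists held 6 higher and 2 lower genes, against 13 and 1 without it, with 2 of the other immediate early genes and 0 of the bZIP partners. Without siR-GAL3 replicate 2, 167 of all genes passed the adjusted threshold, and 0 with it.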

Other observations

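Over the 6 libraries, the genes whose log2 values followed those of JUN most closely were IL1R1 (Pearson r 0.981), FAM217B (0.980) and CPM (0.978). For FOS they were NPRL3 (0.994), ARHGEF7 (0.979) and ATXN7L1 (0.975), and for EGR1 TOX4 (0.991), GPHN (0.984) and STK40 (0.972). For ATF3 they were RPS29, LOC108352650 and TCF19, each at 0.999. The points share the 6 libraries and the authors' correction, and with so few points high values are common: 549 genes had an r above 0.95 with ATF3, whose values turned on siR-GAL3 replicate 2, and 934 with FOSL2, but 42 with JUN, 15 with EGR1 and 8 with FOS. These are descriptions with no test.

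JUNB and JUND varied together over the same 6 libraries (Pearson r 0.946), as did ATF3 and IER2 (0.951). FOSL2 ran against ATF3 (-0.965) and IER2 (-0.941). These pairs were named after their values were seen. An r above 0.95 was found with JUND for 195 genes, with IER2 for 442 and with JUNB for 35, so such values are not particular to these pairs.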
